A study of Mus musculus with 19 samples.

Results

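Dense peak clusters are stretches of chromosome in which many accessible sites lie close together. They were found from positions alone. On chromosomes 1 to 19 the ATAC-seq peaks were sorted by their start, neighbouring peaks whose centres lay at most 5 kb apart were joined into chains, and every peak of a chain with at least 6 peaks was kept. This left 1291 peaks in 176 clusters, which is 1.43% of the 90154 peaks of the table and 0.265% of the 66474 chains on these chromosomes. No measured value chose them. Of the other chains, 51353 were lone peaks and 14945 held 2 to 5 peaks.

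The libraries profile mouse neural stem cells as they differentiate into astrocytes. Stem cells were taken from the ventricular zone, 1 C57BL/6J wild-type brain at a time, at embryonic day 14, and were grown as neurospheres (NSPs) in EGF, and were then plated on poly-L-ornithine in medium with 10% FBS to become astrocytes. The 6 groups were the untreated NSPs (n = 3, time 0, whose titles nevertheless read Astrocytes), untreated cells after 24 h (n = 3) and 72 h (n = 3) of differentiation, cells differentiated for the same times with the inflammatory cytokine TNF at 50 ng/ml (24 h TNF, n = 3, and 72 h TNF, n = 3), and untreated cells after 1 week (n = 4). No TNF group exists at 1 week, and the labels name no transgene or knockout. All differentiated groups received serum and a coated surface together, in exchange for the neurosphere medium with EGF. A change from NSPs thus joins time, serum, adhesion and the loss of EGF and the rest of that medium. The names of the 10 libraries at 72 h, 72 h TNF and 1 week carry a tag, Luc, that the other 9 lack and that the labels do not explain, so 72 h against 24 h and the tag cannot be told apart. The labels do not say that the libraries of a group came from separate cultures, so p-values measure only the spread between these libraries.

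ATAC-seq uses a transposase that cuts and tags DNA where it is not covered by nucleosomes or other proteins, so that read number at a site follows how open it is. Open sites mark the promoters of genes and the enhancers that control them. Genes that act in development or that answer signals often lie among many enhancers, and such enhancers can open and close independently of one another and of the promoter. In neural stem cells, Notch, Wnt and Hedgehog signalling and the transcription factors Sox8, Pou3f2, Pou3f3, Nfia and Nfix are known to direct growth and the turn to glia. TNF acts through NF-kB and AP-1 factors such as Junb. These statements are background, and none was tested here.

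The level of a peak was log2(normalised reads + 1), where normalised reads are whole read counts divided by a library's size factor. The level of a cluster in a library was the mean of the levels of its peaks, so that each peak counts alike however many reads it holds. A change is the difference between the means of 2 groups on this log2 scale, with its SE. Chains and peaks were called higher or lower when the adjusted p of the limma-trend test, taken over all chains or all peaks of the table, was under 0.05. Because 1 is added to every value, changes of peaks with few reads are understated. In peaks at the floor of 1 read, however, the value follows only the library's size factor. There 1 read stood for 0.47 to 2.20 normalised reads, depending on the library. Each library pools many cells, so fewer cells with an open site and less opening per cell cannot be told apart.

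The clusters spanned 5.94 to 65.6 kb, with a median of 15.9 kb, and covered 2.98 Mb in all. Neighbouring centres lay a median of 2434 bp apart. Of the 176 clusters, 94 held 6 peaks, 37 held 7, 28 held 8 or 9, and 17 held 10 or more, up to 28. At least 1 protein-coding gene overlapped 152 clusters, and 56 clusters lay wholly inside a gene. Chromosome 11 held 28 clusters (15.9%), beside 6.69% of all peaks on chromosomes 1 to 19. The centre of a member peak lay inside a protein-coding gene in 60.9% of cases, against 53.2% of all peaks. A gene start lay in 122 member peaks (9.45%), against 11.9% of all peaks, and 86 clusters had at least 1 such peak. In chains of 2 to 5 peaks 9.74% of the peaks lay over a gene start. Most member peaks thus lay away from gene starts, as did most peaks elsewhere in the table.

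The promoters below carry the gene starts of 3 clusters on which the results turn, and they are shown so that a reader can see what lies under those peaks. Sequences run 5′ to 3′ on the gene's strand from 250 bases before to 50 bases after the start, as RefSeq gives them for GRCm38.p6. Capitals mark matches on either strand. In the histone promoters these are to the CCAAT box and to the TATA box, TATAAA. In Btg2 and Junb the cAMP response element, TGACGTCA, would be marked as well. The first 4 belong to a cluster of histone genes on chromosome 13 that was lower at 24 h in every peak. H3c3 lies at chr13:23745472-23745771 on the minus strand, and H2bc3, H2ac4 and H3c2 lie at chr13:23746484-23746783, chr13:23750838-23751137 and chr13:23752095-23752394 on the plus strand. Btg2 lies at chr1:134079106-134079405 and Junb at chr8:84978699-84978998, both on the minus strand.
H3c3: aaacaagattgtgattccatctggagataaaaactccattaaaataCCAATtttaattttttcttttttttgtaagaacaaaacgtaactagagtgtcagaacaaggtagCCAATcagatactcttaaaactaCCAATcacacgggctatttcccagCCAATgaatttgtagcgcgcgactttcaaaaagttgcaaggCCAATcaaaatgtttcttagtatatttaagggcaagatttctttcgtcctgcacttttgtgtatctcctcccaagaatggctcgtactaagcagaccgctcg
H2bc3: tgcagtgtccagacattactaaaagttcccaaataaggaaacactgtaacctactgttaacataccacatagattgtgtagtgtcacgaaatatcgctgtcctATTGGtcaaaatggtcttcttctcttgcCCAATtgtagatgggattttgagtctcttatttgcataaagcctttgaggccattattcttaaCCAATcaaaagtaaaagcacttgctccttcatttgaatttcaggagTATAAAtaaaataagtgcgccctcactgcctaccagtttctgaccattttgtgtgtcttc
H2ac4: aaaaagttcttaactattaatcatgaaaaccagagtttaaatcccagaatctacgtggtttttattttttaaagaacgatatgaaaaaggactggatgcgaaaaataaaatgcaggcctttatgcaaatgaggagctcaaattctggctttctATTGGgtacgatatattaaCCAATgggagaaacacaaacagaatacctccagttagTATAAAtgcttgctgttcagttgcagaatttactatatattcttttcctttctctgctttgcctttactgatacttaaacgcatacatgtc
H3c2: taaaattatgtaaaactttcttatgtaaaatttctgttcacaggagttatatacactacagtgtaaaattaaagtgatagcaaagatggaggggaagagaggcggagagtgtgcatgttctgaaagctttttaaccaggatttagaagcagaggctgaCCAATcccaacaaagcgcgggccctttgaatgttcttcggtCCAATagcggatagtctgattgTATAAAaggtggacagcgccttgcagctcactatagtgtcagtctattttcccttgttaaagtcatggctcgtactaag
Btg2: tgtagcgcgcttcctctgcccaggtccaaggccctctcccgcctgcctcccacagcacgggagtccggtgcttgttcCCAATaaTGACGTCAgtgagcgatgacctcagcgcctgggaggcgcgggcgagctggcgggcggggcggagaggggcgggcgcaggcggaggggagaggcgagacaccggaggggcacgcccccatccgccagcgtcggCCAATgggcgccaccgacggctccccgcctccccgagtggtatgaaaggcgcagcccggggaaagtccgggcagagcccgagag
Junb: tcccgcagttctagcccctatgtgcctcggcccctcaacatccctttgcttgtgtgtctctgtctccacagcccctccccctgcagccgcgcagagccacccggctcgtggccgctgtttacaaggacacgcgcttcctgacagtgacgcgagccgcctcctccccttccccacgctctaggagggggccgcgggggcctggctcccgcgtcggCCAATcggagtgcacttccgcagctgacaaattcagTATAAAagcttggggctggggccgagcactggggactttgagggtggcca

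The 145 promoter windows whose gene start lay in a member peak were compared with all 32817 windows of the same length. GGGCGG, the GC box, was in 61.4% of the member windows and 35.6% of all. CCAAT was in 42.1% and 37.4%, TATAAA in 9.66% and 13.6%, TGANTCA (the AP-1 site) in 6.21% and 7.81%, TGACGTCA (the cAMP response element) in 2.07% and 1.79%, an NF-kB motif of 10 letters in 1.38% and 1.63%, and GTGGGAA (the RBPJ site) in 2.76% and 6.39%. Member windows had a GC content of 62.7%, against 53.8%, and a median of 22 CpG, against 7. The set of all windows was taken whether or not a peak lay over them, and windows under other gene-start peaks were not compared. Whether these differences belong to dense clusters or to open promoters in general was not tested. The 7 windows of the histone cluster differed from the other members in base composition. Their GC content was 43%, 6 held CCAAT and 5 held TATAAA. H3c3 alone had 5 CCAAT matches and no TATAAA. The Btg2 window held 1 TGACGTCA and 2 CCAAT matches, and the Junb window held 1 TATAAA, 1 CCAAT and none of the AP-1, cAMP response element and NF-kB strings. A match is a string of letters only, and no binding was measured.

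Libraries held 9640256 to 39349111 reads in peaks, with the NSPs the deepest (28636739 to 39349111), and 1.50 to 1.77% of a library's reads lay in member peaks. The Spearman rank correlation between libraries of 1 group over the cluster levels was at least 0.976 outside the NSPs, and 0.927 to 0.992 among the NSPs, where replicate 1 stood apart from the other two. Changes from NSPs are therefore also given without it where they move. As a check of the labels, peaks within 1 kb of an end of 5 of 7 neural progenitor markers (none for Pax6 and Prom1) had a mean level of 9.73 in NSPs, 8.92 at 24 h, 8.56 at 72 h and 8.64 at 1 week. For 7 of 8 astrocyte markers (none for Aqp4) the mean ranged only from 7.55 (72 h TNF) to 7.85 (72 h). Peaks near markers of other cells were present too, at 7.80 to 8.06 for 6 of 9 neuronal genes (none for Dcx, Gad2 and Rbfox3), 6.87 to 7.11 for 5 of 9 oligodendrocyte genes (none for Mbp, Mog, Pdgfra and Sox10), 5.99 to 6.74 for 3 of 7 microglial genes (none for Aif1, Csf1r, Cx3cr1 and Itgam), 7.40 to 7.98 for 1 of 5 endothelial genes and 7.64 to 8.13 for 1 of 6 fibroblast and pericyte genes. The last group of markers was lowest in NSPs and at 8.07 at 72 h and at 1 week, and the part of such cells in the results was not tested.

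Member peaks were more open than the average site. Their median level was 6.98, against 6.45 for peaks of chains of 2 to 5, 6.20 for lone peaks and 6.31 for all peaks. The gap lay in the sites away from gene starts. Member peaks over a gene start had a median of 8.55, close to the 8.60 of all gene-start peaks, and the other member peaks had 6.89. Chains just below and just above the limit of 6 had median levels of 6.98 for the 212 chains of 5 peaks, 7.18 for the 94 of 6 and 7.35 for the 37 of 7. The shares higher at 24 h were 25.2, 15.96 and 13.5% in this order, those lower 29.0, 29.8 and 40.5%, and those higher under TNF 9.05, 5.32 and 0% at 24 h and 9.05, 3.19 and 5.41% at 72 h.

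A set of 12 clusters held peaks with too few reads to test, and most of these clusters had low levels. The fewest reads in any value of the table was 1, and 688 peaks stood at 1 read in all 19 libraries, 68 of them members. Of the 1291 member peaks, 1176 passed a filter on low values, and the 115 that failed lay in these 12 clusters of 169 peaks, which included 7 of the 10 clusters with most peaks. The longest, at chr8:123567455-123623945, was the array of 5S ribosomal RNA genes. All 28 of its peaks failed, 23 of them at 1 read everywhere, and its mean level was 1.10. A second 5S cluster near Gas8 had 8 of 8 peaks at 1 read and a level of 1.05. The cluster of Ifnz and related interferon genes at chr4:88773479-88806222 had 11 of 12 failed peaks, and its level was 1.58. The cluster near Alkbh8 at chr9:3000374-3038121, with 28 peaks and a level of 4.11, lay at the very start of the assembled chromosome, and 9 of its peaks failed. Clusters near Hrh1 (19 of 23 failed) and Atg7 (11 of 14), of predicted genes from Gm40369 to Gm40363 (10 of 11), at Ece1 (6 of 9), at Fcgr3 and tRNA genes (6 of 10) and both clusters in Sfi1 (5 of 11 and 1 of 7) had levels of 1.52 to 3.41. Bmf, a pro-apoptotic BH3-only gene, lost 1 of 8 peaks and kept a level of 6.98. Both 5S clusters had no peak that could be tested, which left 174 clusters. In the 164 clusters in which every peak passed, levels ran from 4.51 to 9.21 with a median of 7.27.

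Over all members the mean level stayed within a narrow range. Averaged over the 176 clusters, NSPs stood at 6.98 ± 0.05 and untreated cells at 6.89 ± 0.01 after 24 h and 7.0 ± 0.03 after 72 h (mean ± SD, n = 3 each). With TNF the values were 6.92 ± 0.01 and 6.99 ± 0.04 (n = 3 each), and 1 week gave 6.96 ± 0.03 (n = 4). Single clusters moved less than single sites did. The distance between the highest and the lowest group mean had a median of 0.66, and exceeded 2-fold in 43 of the 176 clusters (24.4%), against 48.0% of chains of 2 to 5 (median 0.97) and 60.7% of lone peaks (median 1.24). A mean over more peaks varies less by its construction. The highest group was NSPs for 62 clusters (35.2%, against 31.7% of all chains), 1 week for 46 (26.1%, against 27.5%), 72 h for 23 (13.1%, against 8.37%) and 24 h for 8 (4.55%, against 11.1%).

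Levels followed different courses at gene starts and elsewhere. Member peaks over gene starts had a mean level of 8.40 ± 0.04 in NSPs (n = 3), 8.02 ± 0.09 at 24 h (n = 3), 8.05 ± 0.05 at 72 h (n = 3) and 8.29 ± 0.03 at 1 week (n = 4). Peaks inside genes but away from a start went from 6.95 in NSPs to 6.85 at 24 h, 6.95 at 72 h and 6.85 at 1 week. Peaks outside genes had 5.68 in NSPs, 5.80 at 24 h, 5.94 at 72 h and 5.92 at 1 week. These means hold all 444 such peaks, of which only 353 passed the filter, and values at the floor follow the size factors. Among the 353, the median change at 24 h was -0.07, with 93 lower and 86 higher. The rise in the mean at 24 h is therefore not read as opening. In the libraries the gene-start peaks were lower at 24 h than in NSPs without overlap, from 7.95 to 8.12 against 8.36 to 8.45.

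**Figure D1:**
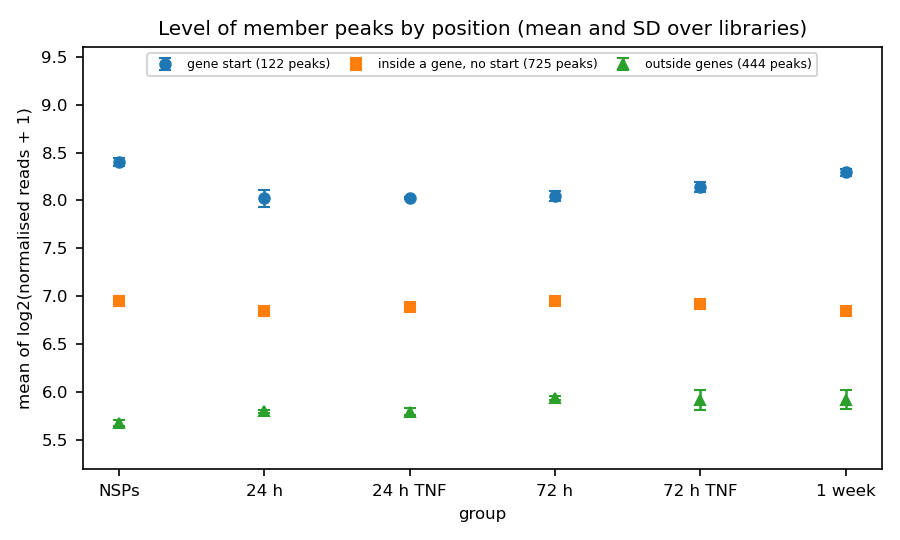
Mean log2 level of the member peaks in the 6 groups (x axis), split into 122 peaks over gene starts, 725 inside genes and 444 outside genes, with bars for the SD over 3 libraries (4 at 1 week). Gene-start peaks stand at 8.40 in NSPs, 8.02 at 24 h and 8.29 at 1 week, while peaks outside genes lie between 5.68 and 5.94. Of the 444 outside genes, 353 passed the filter on low values, and the rest follow the size factors.

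The question of the first comparison was what the first day of differentiation does to the clusters. At 24 h, 55 of the 174 tested clusters were called lower than in NSPs (31.6%) and 25 were called higher (14.4%), where all chains of the table gave 22.5% lower and 24.8% higher. The median change was -0.16 in the clusters and -0.05 over all 65928 tested chains. Of the 1176 member peaks that passed the filter, 402 were lower (34.2%) and 248 higher (21.1%), beside 23.0% and 24.2% of all 88919 tested peaks. Without the 12 clusters with failed peaks the counts were 55 lower and 25 higher of 164. The sizes depend on the scaling and on the libraries fitted. Scaling libraries by their total reads in peaks raised the median change of all chains by 0.19 and turned the split into 28 lower and 45 higher, while cyclic loess gave 48 and 28 and edgeR on the summed reads of each cluster 74 and 31. Under all of them the clusters' median lay below that of all chains, at 0.02 against 0.13 with total reads. Fitting only the NSPs and 24 h libraries left 32 of 174 clusters lower (18.4%), and chains at 3 kb gave 3 of 22 (13.6%). The shares of all chains are not given for these settings, so whether clusters fell more often there was not compared.

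Between 24 h and 72 h, 29 clusters were called higher (16.7%) and 10 lower (5.75%), against 11.4% and 15.2% of all chains, with median changes of 0.14 and -0.03. Among member peaks, 223 were higher (18.96%) and 114 lower (9.69%), beside 12.0% and 14.3% of all peaks. Total-read scaling split them 39 higher to 5 lower, loess 31 to 9, edgeR 48 to 17, and a prior variance set by the number of peaks 50 to 18. Without 24 h replicate 1 or 2, or without 72 h replicate 1 or 2, the share of lower clusters was 3.45, 2.30, 2.30 and 2.87%. The libraries of this contrast also differ by the tag in their names. Of the 212 peaks of the table that had at most 3 reads in every tagged library and at least 20 in every untagged one, none was a member.

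From 72 h to 1 week, 30 clusters were called higher (17.2%) and 22 lower (12.6%), against 23.0% and 16.5% of all chains, and the median change was -0.01, against 0.02. Of the member peaks, 265 were higher (22.5%) and 202 lower (17.2%), beside 22.5% and 16.2% of all peaks. This contrast had no stable direction. Total-read scaling lowered the median change of all chains by 0.33 and left 1 cluster higher and 89 lower, loess gave 8 and 24, and edgeR 44 and 23. Without 72 h replicate 1 the shares were 9.20% higher and 6.90% lower. Changes at 1 week below are therefore on the scale of the deposited size factors, and values under another scaling stand beside clusters' values that lost their call or turned. Changes of single peaks are given on the deposited scale alone.

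TNF moved few clusters in the main test. At 24 h, 7 clusters were called higher than in untreated cells (4.02%) and 1 lower (0.575%), against 6.85% and 3.33% of all chains. At 72 h, 5 were higher (2.87%) and 5 lower (2.87%), against 6.31% and 5.42%. Single peaks within clusters were called about as often as other peaks, with 97 higher (8.25%) and 42 lower (3.57%) at 24 h, beside 7.06% and 3.53%, and with 81 higher (6.89%) and 73 lower (6.21%) at 72 h, beside 6.24% and 5.55%. At 72 h, total-read scaling gave 3 higher and 13 lower and loess 5 and 7. At 24 h edgeR gave 16 higher and 9 lower, against 8 and 1 with total-read scaling. The edgeR shares were 9.20% and 5.17%, beside 7.42% and 4.26% of all chains. A prior variance set by the number of peaks, in place of one mostly drawn from lone peaks, gave 20 higher and 6 lower at 24 h and 16 higher and 13 lower at 72 h. These were 11.5% and 3.45% at 24 h, beside 7.15% and 3.47% of all chains. At 72 h they were 9.20% and 7.47%, beside 6.54% and 5.70%. Whether clusters were called less often than all chains under TNF thus depends on the setting. Leaving out NSPs replicate 1, which enters only the common estimate of the spread, gave 12 higher and 2 lower at 24 h and 11 higher and 9 lower at 72 h. Without 24 h replicate 3, 2 were lower at 24 h. Leaving out a 72 h or 72 h TNF library lowered the counts at 72 h, to 3 higher without replicate 1 or 3 of either group, to 3 lower without 72 h replicate 1 or 2 or 72 h TNF replicate 1 or 2, and to 2 lower without 72 h TNF replicate 3. The effect of TNF differed between the times in 0 of 174 clusters by the limma-trend interaction test (lowest adjusted p = 0.46), with 6 at an unadjusted p under 0.05 (3.45%), beside 0 of 65928 chains with 5014 at an unadjusted p under 0.05 (7.61%).

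**Figure D2:**
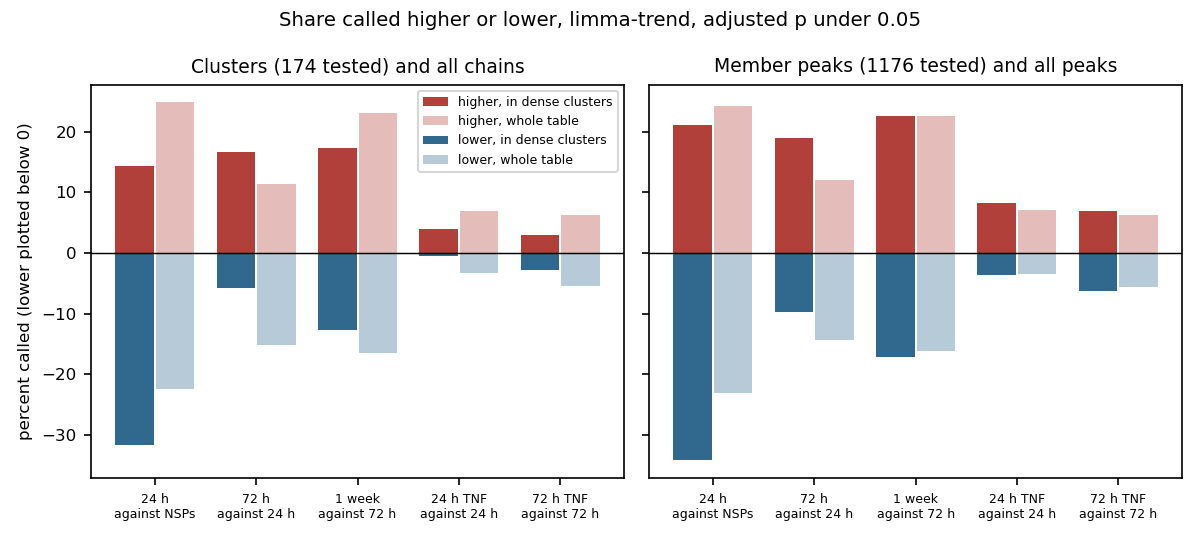
Percent of the 174 dense clusters (left) and of their 1176 tested peaks (right) called higher (red, above 0) or lower (blue, below 0) in each of the 5 comparisons, with the whole table in pale colours. In the clusters 31.6% are lower at 24 h than in NSPs, against 22.5% of all chains, and 4.02% are higher under TNF at 24 h, against 6.85%.

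Peaks of the same cluster often changed unequally. The peaks of a cluster were tested for unequal changes (limma's diffSplice F test, in which peaks of 1 library are treated as independent). Changes differed within 146 of 172 clusters between NSPs and 24 h (84.9%, against 48.6% of all chains of 2 or more peaks), within 100 between 24 h and 72 h (58.1%, against 21.6%), and within 129 between 72 h and 1 week (75.0%, against 32.9%). For TNF the numbers were 46 at 24 h (26.7%, against 11.9%) and 51 at 72 h (29.7%, against 11.2%). The test gains power with the number of peaks, and chains of 5 peaks gave 80.5%, 49.0%, 63.8%, 28.1% and 27.1% in the same order. At 24 h, 92 of 174 clusters held both a higher and a lower peak, and all peaks had 1 sign in only 30. The median distance between the highest and the lowest peak change of a cluster was 1.88 at 24 h, 1.10 at 72 h, 1.24 at 1 week, and 0.89 and 0.96 for TNF at 24 h and 72 h. Both these counts and these distances grow with the number of peaks, and they were not taken for other chains. Of all peaks of the table, 24.2% were higher and 23.0% lower at 24 h. They are therefore not shown to be particular to dense clusters. The share of the variance of peak changes that lay between clusters (intraclass correlation, a description over 1174 peaks) was 0.26 at 24 h, and without clusters that had failed peaks 0.23 over 1122 peaks, beside 0.22 over 34480 peaks of chains of 2 to 5.

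**Figure D3:**
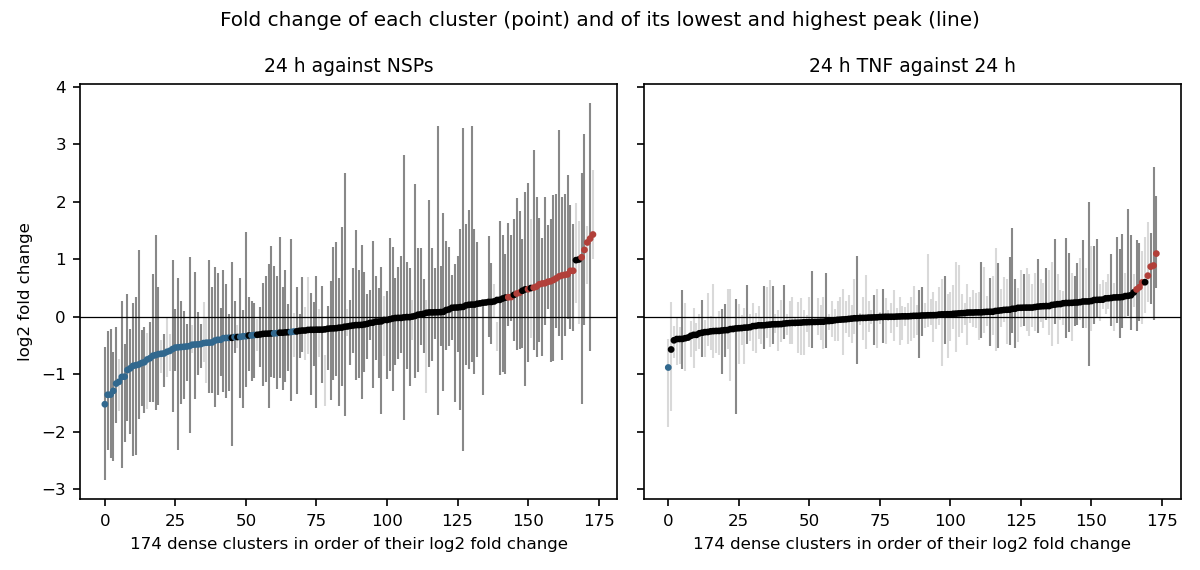
Log2 change of each of the 174 tested clusters (point, in rank order, red higher, blue lower, black not called) with the range from its lowest to its highest peak (line, dark where peaks differed in their change), for 24 h against NSPs (left) and TNF at 24 h (right). The lines cross 0 for most clusters, with a median length of 1.88 on the left and 0.89 on the right.

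Gene starts and the other peaks of the same cluster were compared within each library. At 24 h the gene-start peak changed by less than the mean of the others, or fell by more, in 57 of 84 clusters that have both (median difference -0.18), and at 72 h in 56 of 84 (median -0.13). At 1 week it lay below the others in only 16 of 84 (median 0.32). For TNF it lay below in 48 of 84 at 24 h and 31 of 84 at 72 h, with medians of -0.05 and 0.09. These differences are within libraries, so that scaling by 1 factor per library cancels, apart from the 1 added to each value. A bias that depends on level would not cancel, since gene-start members had a median level of 8.55 and the others 6.89. The differences were not computed with loess, under which member peaks higher at 1 week went from 22.5% to 8.42%. Of the 116 tested gene-start members, 70 were lower at 24 h (60.3%) and 3 higher (2.59%), and 55 were higher at 1 week (47.4%) and 6 lower (5.17%). Over all 10668 gene-start peaks of the table the main direction was the same at these times, with 43.3% lower and 4.50% higher at 24 h and 60.05% higher at 1 week. From 24 h to 72 h, 12.1% of the members were lower and 8.62% higher, beside 23.2% and 7.27% of all gene-start peaks. Under TNF, 3 of 116 were higher (2.59%) and 1 lower (0.862%) at each time, close to all gene-start peaks, of which 1.79% and 0.656% were at 24 h and 3.19% and 0.900% at 72 h. Among 707 member peaks inside genes 58 were higher and 34 lower at 24 h and 48 and 52 at 72 h. Among 353 outside genes 36 were higher and 7 lower at 24 h and 30 and 20 at 72 h. The shares of all peaks of the table inside genes and outside genes were not taken. Whether these counts are particular to member peaks was therefore not tested.

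The Btg2 cluster (chr1:134060793-134083337, 7 peaks) had the smallest p among all clusters at 24 h. Btg2 is an antiproliferative gene that marks neurogenic progenitors. Its level was 8.69, 8.84 and 8.88 in NSPs, 7.59, 7.43 and 7.32 at 24 h, 7.10, 7.25 and 7.21 at 72 h and 7.07, 7.07, 6.99 and 7.10 at 1 week. NSPs stood above every other library. The change at 24 h was -1.35 (SE 0.11, adjusted p = 7.0e-10), or -1.41 (adjusted p = 1.7e-10) without NSPs replicate 1, and 6 of 7 peaks were lower. The loss was deepest inside the cluster. Peak 3, at 6.37 kb from the first peak and away from gene starts, had 339, 242 and 272 normalised reads in NSPs, 74.00, 45.7 and 38.2 at 24 h and 11.5, 11.7, 6.60 and 15.01 at 1 week. The peak over the Btg2 start had 1944, 1265 and 1277 in NSPs and 857, 962 and 618 at 24 h (-0.87, SE 0.15, adjusted p = 2.6e-05), and had 1025, 989.7, 1155 and 1077 at 1 week (0.49, SE 0.14, adjusted p = 0.0072 against 72 h). The farthest peak, at 22.0 kb, was not called at 24 h and was higher under TNF at both times (0.81, SE 0.20, adjusted p = 0.0063 and 0.73, SE 0.20, adjusted p = 0.013). With TNF at 72 h the whole cluster stood at 7.54, 7.59 and 7.60 and was called higher, by 0.39 (SE 0.11, adjusted p = 0.024).

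Sdc3 (chr4:130797388-130815482, 7 peaks), which encodes the heparan sulfate proteoglycan syndecan-3, was lower at 24 h in all 7 peaks. Its level was 8.38, 8.70 and 8.70 in NSPs, 7.42, 7.22 and 7.26 at 24 h and 7.03, 7.06, 6.90 and 7.15 at 1 week, without overlap, and the change at 24 h was -1.29 (SE 0.13, adjusted p = 1.2e-08). Peak 3 fell most, from 178, 284 and 304 to 72.9, 36.9 and 29.6 normalised reads, and peak 2 least (-0.62, SE 0.21, adjusted p = 0.016). The gene-dense cluster of Midn and Cirbp (chr10:80148009-80167959, 10 peaks), a regulator of protein turnover and a cold-induced RNA-binding protein, stood at 9.02, 9.00 and 8.96 in NSPs and 8.15, 8.22 and 8.05 at 24 h. It was lower with a change of -0.85 (SE 0.10, adjusted p = 1.8e-07), with 9 of 10 peaks called. At 1 week its call of 0.28 (SE 0.09, adjusted p = 0.020) turned to -0.06 (adjusted p = 0.56) with total-read scaling and -0.01 (adjusted p = 0.96) with loess.

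The histone cluster (chr13:23745323-23763897, 7 peaks) is the one in which every peak covers a gene start. It covers H3c3, H2bc3, H2ac4, H3c2, H4c2, H4c1, H3c1 and H1f1, replication-dependent histone genes whose products package new DNA. It was named after its values were seen, as were the other clusters outside the naming rule in this and the following paragraphs. Its level was 8.49, 9.29 and 9.24 in NSPs, 7.87, 7.96 and 7.81 at 24 h, 7.71, 7.92 and 7.88 at 72 h and 8.24, 8.22, 8.22 and 8.28 at 1 week. All 7 peaks were lower at 24 h, the cluster by -1.13 (SE 0.15, adjusted p = 9.4e-07), or -1.39 (adjusted p = 2.9e-11) without NSPs replicate 1, whose level was the lowest of the NSPs. Peak changes ran from -1.64 to -0.73, and the test for unequal changes missed its threshold (adjusted p = 0.10). The H3c2 peak had 265, 777 and 803 normalised reads in NSPs and 181, 145 and 207 at 24 h, and the H4c1 peak 1258, 1303 and 1324 and 607, 639 and 427. At H4c1 the NSPs replicates were close to each other, while at H3c2 replicate 1 was near the 24 h libraries. Histone genes are near-copies of one another, so reads may have been shared between members. The call at 1 week, 0.41 (SE 0.14, adjusted p = 0.021), was lost with total-read scaling (0.07, adjusted p = 0.73) and loess (0.18, adjusted p = 0.36).

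In Inka2 and Cspg4 every library at 1 week stood below every one at 24 h. Inka2 (chr3:105704348-105723583, 8 peaks), an inhibitor of the kinase PAK4, had the most negative change, -1.52 (SE 0.21, adjusted p = 3.3e-06), with all 8 peaks lower and with -1.91 (adjusted p = 7.3e-11) without NSPs replicate 1. Its level was 7.89, 9.02 and 9.11 in NSPs, 7.11, 7.10 and 7.25 at 24 h and 5.95, 6.26, 6.38 and 6.28 at 1 week. Cspg4 (chr9:56864786-56882767, 6 peaks), the NG2 proteoglycan of oligodendrocyte precursors and pericytes, stood at 7.95, 8.24 and 8.11 in NSPs, 6.71, 6.84 and 6.68 at 24 h and 5.34, 5.72, 6.24 and 5.86 at 1 week. It changed by -1.36 (SE 0.18, adjusted p = 2.0e-06) at 24 h and by -0.55 (SE 0.17, adjusted p = 0.013) from 72 h to 1 week. The Cspg4 start peak did not share in this. It had 269, 243 and 204 normalised reads in NSPs and 191, 207 and 203 at 24 h (-0.24, SE 0.16, adjusted p = 0.22), while peak 2, at 3.44 kb, went from 1036, 953 and 964 to 219.7, 236 and 163. Peak 3 was the exception under TNF, with 137, 146 and 158 at 24 h and 363, 349 and 444 at 24 h TNF (1.38, SE 0.20, adjusted p = 1.8e-05).

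The 3 clusters with the smallest p among those that opened at 24 h follow. The Pim3 cluster (chr15:88850413-88867982, 7 peaks), which holds a serine/threonine kinase gene and the non-coding Gm33049, stood at 7.88, 7.45 and 7.15 in NSPs, 8.67, 8.57 and 8.71 at 24 h, 8.98, 8.91 and 9.04 at 72 h and 9.35, 9.28, 9.34 and 9.31 at 1 week. The libraries of each later untreated time stood above those of the earlier one. The change at 24 h was 1.16 (SE 0.13, adjusted p = 8.1e-08), and 1.35 (adjusted p = 3.6e-11) without NSPs replicate 1. The change at 72 h was 0.32 (SE 0.13, adjusted p = 0.062), and the one at 1 week, 0.34 (SE 0.12, adjusted p = 0.026), was 0.00 (adjusted p = 1.000) with total-read scaling and 0.02 (adjusted p = 0.90) with loess. Peak 7, at 17.1 kb, went from 14.02, 10.4 and 3.32 normalised reads to 77.4, 69.3 and 98.5 at 24 h and 268, 249, 227 and 284 at 1 week. The Pim3 start peak stayed within its spread, with 2018, 1338 and 1191 in NSPs and 1289, 1439.8 and 1281 at 24 h (-0.15, SE 0.14, adjusted p = 0.40). The summed reads, which that start peak dominates, gave a change of only 0.25 (adjusted p = 0.030) with edgeR.

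The second was Emc8 and Cox4i1 (chr8:120653179-120668500, 6 peaks), which encode a subunit of the ER membrane protein complex and one of cytochrome c oxidase. Its level was 6.54, 5.62 and 5.58 in NSPs and 7.27, 7.38 and 7.18 at 24 h, a change of 1.36 (SE 0.18, adjusted p = 1.2e-06), or 1.67 (adjusted p = 7.3e-11) without NSPs replicate 1 and 0.39 (adjusted p = 0.0088) on summed reads with edgeR. Peak 4, at 8.77 kb, was close to empty in NSPs, with 11.7, 3.77 and 3.32 normalised reads, and had 80.8, 91.5 and 76.4 at 24 h. The third was Capns1 (chr7:30193664-30203325, 6 peaks), the small subunit of calpain. It rose in steps, from 6.65, 6.68 and 6.65 in NSPs to 7.53, 7.51 and 7.33 at 24 h (0.80, SE 0.11, adjusted p = 1.5e-06), 8.06, 8.04 and 8.17 at 72 h (0.63, SE 0.11, adjusted p = 1.4e-04) and 8.37, 8.36, 8.33 and 8.37 at 1 week. The last step, 0.27 (SE 0.10, adjusted p = 0.036), was -0.07 (adjusted p = 0.57) with total-read scaling and 0.11 (adjusted p = 0.44) with loess. Its start peak was not called at 24 h, with 381, 381 and 407 in NSPs and 337, 351 and 319 at 24 h.

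**Figure D4:**
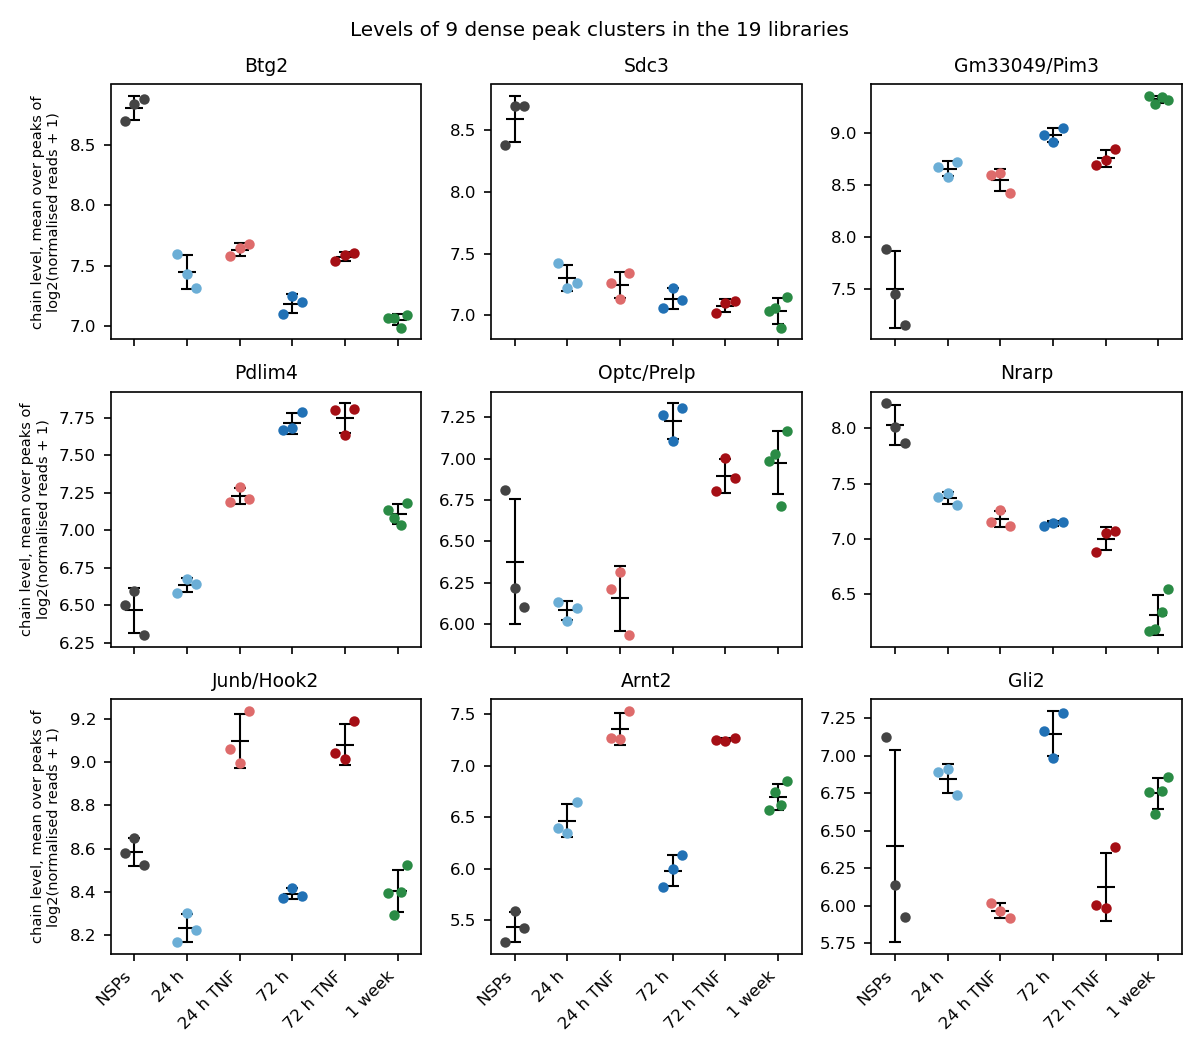
Level of 9 dense clusters in each of the 19 libraries (points, mean log2 of normalised reads + 1 over the peaks of the cluster), with the mean and SD of each group, on a separate y axis for each cluster. Btg2 and Sdc3 are highest in NSPs, Gm33049/Pim3 climbs to 1 week, Pdlim4 and Optc/Prelp rise at 72 h, Nrarp is lowest at 1 week, and Junb/Hook2 and Arnt2 are higher and Gli2 lower under TNF.

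Of the receptors, targets and feedback genes of Notch signalling, 4 had dense clusters, and 3 of the 4 were lower at 24 h (median -0.44), where 31.6% of all dense clusters and 22.5% of all chains were. Alternatives gave 2 to 4 lower and none higher. At 72 h none was called, and at 1 week 2 were higher and 1 lower, against none higher and 2 lower with total-read scaling or loess. TNF gave no call at either time. This and the other gene groups below, from Wnt genes to immediate early genes, were put together from genes seen to have clusters, so their counts are not independent evidence.

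The Notch1 cluster (chr2:26485687-26507935, 11 peaks), of the receptor gene, was not called as a whole at 24 h, with 0.01 (SE 0.10, adjusted p = 0.92), a value that was -0.40 with the median of its peaks and -0.19 with edgeR, yet 2 peaks were higher and 6 lower, and their changes differed (adjusted p = 2.0e-38). Peak 4, at 5.43 kb and away from the start, had 57.8, 46.6 and 31.9 normalised reads in NSPs, 214, 227 and 227 at 24 h and 399, 444, 473 and 415 at 1 week. Peak 3, at 2.99 kb, went the other way, with 237, 250.1 and 278 in NSPs, 126, 97.4 and 142 at 24 h and 74.1, 62.3, 72.6 and 95.4 at 1 week. Their changes at 24 h were 2.31, SE 0.18, adjusted p = 1.2e-11 and -1.07, SE 0.19, adjusted p = 4.3e-05. The start peak moved little, from 1059.7, 835 and 864 to 776, 761 and 686 (-0.30, SE 0.12, adjusted p = 0.033). At 1 week the cluster was called higher (0.24, SE 0.09, adjusted p = 0.039), but the value was -0.10 (adjusted p = 0.38) with total-read scaling and 0.00 (adjusted p = 0.99) with loess.

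Nrarp (chr2:25177563-25186157, 6 peaks), a Notch target that feeds back on the receptor complex, fell at 24 h and again at 1 week. Its level was 8.23, 8.01 and 7.87 in NSPs, 7.38, 7.41 and 7.31 at 24 h, 7.12, 7.15 and 7.16 at 72 h and 6.17, 6.18, 6.34 and 6.55 at 1 week, with changes of -0.67 (SE 0.14, adjusted p = 2.9e-04) and -0.83 (SE 0.13, adjusted p = 2.7e-05). Peak 1 had 403, 492 and 437 normalised reads in NSPs, 145, 136 and 151 at 24 h and 54.7, 46.8, 59.4 and 57.9 at 1 week. The start peak fell only once, from 833, 668 and 619 to 392, 482 and 328, and had 474, 507, 489 and 517 at 1 week. The fall at 1 week was called in the other 5 peaks and not at the start (0.28, SE 0.12, adjusted p = 0.078).

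Hes1 (chr16:30056894-30070820, 6 peaks), the repressor that keeps progenitors undifferentiated, was lower at 24 h with a change of -0.29 (SE 0.10, adjusted p = 0.021), but -0.10 (adjusted p = 0.47) with total-read scaling and -0.13 (adjusted p = 0.27) with loess. Peak 3 had 1439.9, 1010.0 and 1039.9 normalised reads in NSPs and 496, 631 and 529.6 at 24 h, and peak 2 had 149, 204 and 183 and 271, 330.4 and 393, and then 711, 714, 702 and 629 at 1 week. The cluster with Hes3, Gpr153 and Acot7 was lower at 24 h with a change of -0.59 (SE 0.14, adjusted p = 9.4e-04).

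Of the 6 clusters that covered Wnt genes, 4 were lower at 24 h (median -0.35) and 3 higher at 72 h (median 0.25), with no call the other way. Of all dense clusters, 31.6% were lower at 24 h and 16.7% higher at 72 h, beside 22.5% and 11.4% of all chains. Total-read scaling left 1 lower at 24 h and loess 3, while at 72 h total-read scaling, loess and edgeR each gave 3 higher and none lower. At 1 week 1 was lower (3 under total-read scaling, while edgeR called 2 up and 1 down), and TNF gave no call. Of the ligands, Wnt7b (chr15:85561899-85583495, 9 peaks) was lower at 24 h with a change of -0.83 (SE 0.16, adjusted p = 1.6e-04), with 7 peaks lower and 1 higher. Wnt5a fell and came back, by -0.45 (SE 0.13, adjusted p = 0.0082) at 24 h and 0.56 (SE 0.13, adjusted p = 0.0034) at 72 h, and its peak 2 had 777 ± 85.2 normalised reads in NSPs (SD, n = 3), 311 ± 48.8 at 24 h (n = 3) and 643 ± 30.9 at 72 h (n = 3). Wnt9a was higher at 72 h with a change of 0.44 (SE 0.13, adjusted p = 0.018). Axin2, a scaffold that limits the pathway and is also its target, was lower at 24 h with a change of -0.46 (SE 0.13, adjusted p = 0.0049). Bcl9l, a coactivator of beta-catenin, changed by -0.26 (SE 0.11, adjusted p = 0.048) and then 0.45 (SE 0.11, adjusted p = 0.0028). Nkd1, an antagonist, had no call as a cluster at 24 h (-0.01, adjusted p = 0.96), while its peak 2 went from 20.97 ± 8.38 to 144 ± 8.74 (SD, n = 3 each). Wnt7b was again lower at 1 week (-0.39, SE 0.15, adjusted p = 0.043), but -0.30 (adjusted p = 0.14) with loess.

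For Hedgehog signalling there were clusters at Ptch1, the receptor, and Gli2, the main activating factor. Ptch1 was lower at 24 h with a change of -0.81 (SE 0.14, adjusted p = 5.0e-05). Gli2 (chr1:118902164-118916633, 7 peaks) was the only cluster called lower under TNF at both times. Its level was 6.89, 6.91 and 6.74 at 24 h and 6.01, 5.96 and 5.91 with TNF, and 7.17, 6.99 and 7.29 at 72 h and 6.00, 5.99 and 6.39 with TNF. The groups did not overlap, and the changes were -0.88 (SE 0.22, adjusted p = 0.0094) and -1.02 (SE 0.22, adjusted p = 0.0028). At each time 4 of 7 peaks were lower. Peak 4 had 204, 248 and 161 normalised reads at 24 h and 55.7, 42.02 and 61.3 with TNF, and 259, 208 and 238.4 at 72 h and 89.4, 79.8 and 125 with TNF. Peak 6 had 145, 124.4 and 192 at 72 h and 36.7, 42.9 and 49.2 with TNF. No peak of this cluster covers a gene start. In NSPs the libraries were far apart, at 7.13, 6.13 and 5.93, and the change from NSPs at 24 h was 0.45 (SE 0.22, adjusted p = 0.090) with all of them and 0.82 (adjusted p = 3.5e-04) without replicate 1.

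Of the 12 clusters of genes for extracellular matrix and secreted proteins, 7 were lower and 1 higher at 24 h (median -0.45), beside 31.6% and 14.4% of all dense clusters and 22.5% and 24.8% of all chains, with 5 to 7 lower and 1 or 2 higher under the scalings and edgeR. At 72 h 1 was higher. At 1 week 3 were higher and 4 lower, against 0 and 7 with total-read scaling and 1 and 3 with loess, and TNF gave no call. Besides Sdc3 and Cspg4, the clusters lower at 24 h were those of Xylt1, which starts glycosaminoglycan chains (-1.04, SE 0.17, adjusted p = 3.1e-05), Col27a1, a fibrillar collagen (-0.84, SE 0.17, adjusted p = 2.0e-04), Ptn, the growth factor pleiotrophin (-0.68, SE 0.17, adjusted p = 0.0023), Bcan, the brain proteoglycan brevican (-0.53, SE 0.15, adjusted p = 0.0053), and Chst3, a chondroitin sulfotransferase (-0.37, SE 0.12, adjusted p = 0.016). Sparc, a secreted matricellular protein of astrocytes, was the one that was higher, by 0.70 (SE 0.11, adjusted p = 2.1e-05) at 24 h and 0.48 (SE 0.11, adjusted p = 9.9e-04) at 1 week, of which the latter was 0.14 (adjusted p = 0.26) with total-read scaling and 0.26 (adjusted p = 0.068) with loess. Sparc's peak 5 had 11.7 ± 5.32 normalised reads in NSPs (SD, n = 3), 114 ± 8.62 at 24 h (n = 3) and 247 ± 28.1 at 1 week (n = 4). Its peak 4 was higher under TNF, with 368 ± 58.8 at 24 h and 704 ± 32.5 with TNF (SD, n = 3 each).

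The Optc and Prelp cluster (chr1:133908255-133924771, 6 peaks), of a pair of small leucine-rich proteoglycan genes, had the largest change at 72 h. Its level was 6.81, 6.22 and 6.11 in NSPs, 6.13, 6.02 and 6.10 at 24 h, 7.26, 7.10 and 7.31 at 72 h and 6.99, 7.03, 6.72 and 7.17 at 1 week. The change from 24 h to 72 h was 1.14 (SE 0.18, adjusted p = 6.3e-05). The Prelp start peak had 77.4, 111 and 91.1 normalised reads at 24 h and 297, 329 and 308 at 72 h, and peak 4 had 62.6, 20.7 and 59.1 and 197, 171 and 217. Here the start and its neighbour rose together. Peak 1 was open in NSPs, with 602, 247 and 227, and had 122, 108 and 92.4 at 24 h.

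Pdlim4 (chr11:54054152-54075795, 11 peaks), a LIM protein of actin fibres, had the smallest p at 72 h. Its level was 6.50, 6.59 and 6.30 in NSPs, 6.58, 6.67 and 6.64 at 24 h, 7.67, 7.68 and 7.79 at 72 h and 7.13, 7.08, 7.03 and 7.18 at 1 week. The rise at 72 h was 1.08 (SE 0.12, adjusted p = 1.3e-06) with 10 of 11 peaks called, and the fall at 1 week -0.60 (SE 0.12, adjusted p = 2.7e-04). Peak 4 had 143, 145 and 164 normalised reads at 24 h and 591, 519 and 565 at 72 h. TNF at 24 h raised the cluster to 7.19, 7.29 and 7.21, by 0.60 (SE 0.12, adjusted p = 0.0024), so that it lay between the untreated 24 h and 72 h libraries, while at 72 h TNF it stood at 7.80, 7.63 and 7.81 and was not called.

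Arhgap22 (chr14:33313553-33329770, 7 peaks), a GTPase-activating protein for Rac, had the smallest p at 1 week. It went from 6.93, 6.90 and 7.04 in NSPs to 7.52, 7.51 and 7.42 at 24 h, 7.66, 7.63 and 7.72 at 72 h and 8.40, 8.36, 8.37 and 8.39 at 1 week. The last change was 0.71 (SE 0.10, adjusted p = 1.0e-05), and 0.37 (adjusted p = 0.0052) with total-read scaling. Peak 2 had 23.4, 10.4 and 29.9 normalised reads in NSPs, 138, 127 and 173 at 72 h and 392, 421, 497 and 425 at 1 week. Myo18a (chr11:77783059-77793631, 6 peaks), an unconventional myosin, was higher at 72 h by 0.53 (SE 0.10, adjusted p = 4.2e-04) and was called higher again at 1 week. Of the clusters higher at 1 week, total-read scaling kept only the call of Arhgap22. At 24 h Myo18a was not called (0.17, adjusted p = 0.16) although neighbouring peaks moved in opposite directions. Peak 2 had 15.8, 23.1 and 27.2 normalised reads in NSPs and 247, 235 and 179 at 24 h, and peak 3, at 3.06 kb where peak 2 is at 2.26 kb, had 582, 624 and 605 and 118, 149 and 93.6. Under TNF at 24 h, peak 3 had 260.0, 268 and 304. Myo10, a filopodial myosin, was lower at 24 h (-0.27, SE 0.09, adjusted p = 0.024) and at 72 h (-0.34, SE 0.09, adjusted p = 0.0099), and Myh9, non-muscle myosin, had 3 higher and 5 lower of 12 peaks at 24 h and no call as a cluster (-0.37, SE 0.16, adjusted p = 0.058).

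**Figure D5:**
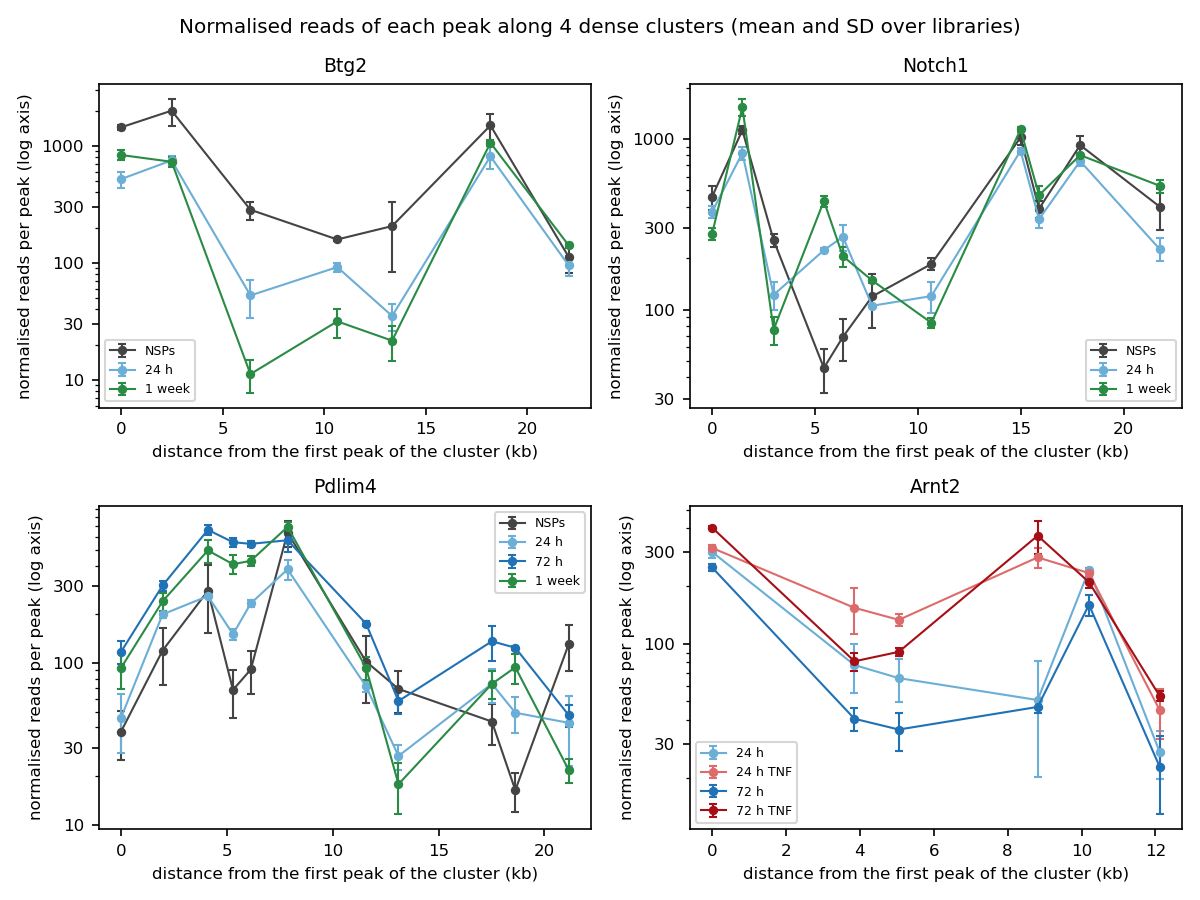
Normalised reads of every peak along 4 dense clusters (log axis, mean and SD over 3 libraries, 4 at 1 week) against distance from the first peak in kb. Within Btg2 the peak at 6.37 kb is the lowest at 1 week, within Notch1 the peaks at 5.43 and 6.36 kb rise while their neighbour at 2.99 kb falls, along Pdlim4 most peaks are highest at 72 h, and in Arnt2 the peak at 8.81 kb stands out under TNF.

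Of the 11 clusters at transcription factors of the nervous system, 3 were higher and 2 lower at 24 h (5 and 2 with total-read scaling or loess), none higher and 3 lower at 72 h (1 and 1 with total-read scaling) and 2 higher and none lower at 1 week (0 and 5 with total-read scaling, 1 and 3 with loess). Under TNF 1 was higher at each time. Of all chains, 24.8% were higher and 22.5% lower at 24 h, and 11.4% and 15.2% at 72 h. At 1 week the shares were 23.0% and 16.5%, and under TNF 6.85% and 6.31% were higher at 24 h and 72 h. Dense clusters gave 14.4% and 31.6%, 16.7% and 5.75%, 17.2% and 12.6%, and under TNF 4.02% and 2.87% in this order. Sox8 (chr17:25556575-25571032, 6 peaks), a SoxE factor of glia, was at 9.21, 9.17 and 9.11 in NSPs, 8.27, 8.52 and 8.33 at 24 h, 7.92, 8.06 and 8.10 at 72 h and 7.93, 8.11, 7.80 and 7.99 at 1 week. It was lower with a change of -0.79 (SE 0.11, adjusted p = 1.9e-06) at 24 h and -0.35 (SE 0.11, adjusted p = 0.019) at 72 h. Pou3f3 was lower at 24 h with a change of -0.64 (SE 0.13, adjusted p = 3.9e-04), and Nr2f1, which patterns the cortex, was lower at 72 h with a change of -0.49 (SE 0.11, adjusted p = 0.0023). Atoh8 and Rfx2 were higher at 24 h, by 0.72 (SE 0.15, adjusted p = 4.1e-04) and 0.48 (SE 0.11, adjusted p = 7.7e-04). Pou3f2, Nfia, Nfix and Zbtb20 were not called at 24 h, with changes of -0.17 (adjusted p = 0.23), -0.20 (adjusted p = 0.40), 0.21 (adjusted p = 0.12) and -0.02 (adjusted p = 0.92). The non-coding C130071C03Rik (chr13:83720988-83732590, 6 peaks) had the smallest p among falls at 72 h, -0.71 (SE 0.11, adjusted p = 4.1e-05), with all 6 peaks lower. Its level went from 9.54, 9.49 and 9.59 in NSPs to 9.00, 8.95 and 8.76 at 24 h and 7.97, 8.32 and 8.29 at 72 h. For the wider lists of 38 progenitor, 31 glial and 36 NF-kB and inflammatory genes, only 3, 5 and 2 clusters existed, and none of the 40 serum, AP-1, TGF-beta and Hippo targets or of the 39 Hox genes had one. Of the 3 progenitor clusters 1 was lower at 24 h, of the 5 glial ones 2 (Sox8 and S100b), and of the NF-kB ones both (Junb and Nfkbib/Sirt2). None was higher, while 31.6% of all dense clusters and 22.5% of all chains were lower. These counts depend on the scaling, since with total-read scaling 1 progenitor cluster was higher and none lower, 1 glial cluster was higher and 1 lower, and no NF-kB cluster was called. In the Nfkbib/Sirt2 cluster, peak 1 covers the start that the 2 genes share, and it was not called at 24 h (-0.18, adjusted p = 0.19). Peaks 2 to 7 lie on the Sirt2 side of it, away from Nfkbib.

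Some of the remaining clusters that the naming rule picked held no gene. One near Lrrc74a (chr12:86781611-86796273, 6 peaks) was higher at 1 week with a change of 0.57 (SE 0.11, adjusted p = 4.5e-04), against 0.22 (adjusted p = 0.15) with total-read scaling. One near Scaf8 (chr17:3006784-3015004), at the very start of the assembled chromosome, was at a level of only 4.60, was higher at 24 h with a change of 1.29 (SE 0.31, adjusted p = 0.0013) and lower at 1 week with a change of -1.17 (SE 0.29, adjusted p = 0.0024), and with loess the last change was -0.61 (adjusted p = 0.12). Rnf216, a ubiquitin ligase, was higher at 24 h with a change of 0.64 (SE 0.15, adjusted p = 0.0012).

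The TNF comparisons asked which clusters an inflammatory signal changes during differentiation. Junb and Arnt2 were called higher at both times. Junb (chr8:84976379-84990754, 6 peaks, with Hook2), an AP-1 subunit and immediate early gene, stood at 8.17, 8.30 and 8.22 at 24 h and 9.06, 9.00 and 9.24 with TNF, and at 8.37, 8.42 and 8.38 at 72 h and 9.04, 9.02 and 9.19 with TNF. TNF libraries were above all untreated ones, by 0.87 (SE 0.10, adjusted p = 3.1e-06) with 5 of 6 peaks higher, and by 0.69 (SE 0.10, adjusted p = 4.8e-05) with 3 of 6. Peaks 3 and 4, beside the gene start, changed most. Peak 4 had 142, 178 and 230.3 normalised reads at 24 h and 455, 485 and 543 with TNF, and 139, 141 and 154 at 72 h and 399, 338 and 353 with TNF. The start peak, whose sequence is shown above, had 647, 600.4 and 648 and 797, 844 and 1158 at 24 h (0.54, SE 0.14, adjusted p = 0.011), and was not called at 72 h. The start peak of Hook2, a microtubule linker protein, was not called at either time (0.22, SE 0.11, adjusted p = 0.24 at 24 h).

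Arnt2 (chr7:84328910-84341524, 6 peaks), the partner of bHLH-PAS factors such as Sim1 and Npas4, had the largest gain under TNF at 72 h. Its level was 5.29, 5.58 and 5.42 in NSPs, 6.40, 6.35 and 6.65 at 24 h and 7.27, 7.26 and 7.53 at 24 h TNF, 5.82, 5.99 and 6.13 at 72 h and 7.25, 7.24 and 7.27 at 72 h TNF, and 6.57, 6.74, 6.62 and 6.85 at 1 week. Without TNF it was higher at 24 h (1.03, SE 0.16, adjusted p = 9.6e-06), lower at 72 h (-0.48, SE 0.16, adjusted p = 0.026) and higher at 1 week (0.71, SE 0.15, adjusted p = 5.6e-04), of which the last was 0.38 (adjusted p = 0.056) with total-read scaling. TNF changed it by 0.89 (SE 0.16, adjusted p = 5.7e-04) at 24 h and 1.27 (SE 0.16, adjusted p = 8.5e-06) at 72 h. Peak 4 rose most, from 35.3, 30.98 and 86.2 to 279, 249 and 319 normalised reads at 24 h and from 47.6, 43.1 and 49.7 to 381, 288 and 431 at 72 h, while the neighbouring peak 5 was not called at either time (-0.06, SE 0.14, adjusted p = 0.87 and 0.40, SE 0.14, adjusted p = 0.059). No peak of this cluster covers the Arnt2 start.

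Ppl (chr16:5126755-5140212, 6 peaks), which encodes the linker protein periplakin, had the largest gain under TNF at 24 h. Its level was 6.19, 6.62 and 6.47 at 24 h and 7.44, 7.56 and 7.58 with TNF, a change of 1.10 (SE 0.17, adjusted p = 1.3e-04). At 72 h it was 7.15, 6.96 and 7.12 and 7.62, 7.29 and 7.30, and was not called (0.33, SE 0.17, adjusted p = 0.23). The difference between the times was itself not called. Peak 4 had 40.99, 69.3 and 46.8 normalised reads at 24 h and 192, 227 and 247 with TNF. The other gains at 24 h were Inf2, a formin that builds actin filaments (0.71, SE 0.17, adjusted p = 0.0067), the non-coding Lncpint (0.51, SE 0.10, adjusted p = 0.0017) and the site near Lrrc74a (0.48, SE 0.12, adjusted p = 0.013). Within Lncpint the TNF gains lay in peaks 4, 5 and 8, and peak 5 had 106, 100.3 and 105 normalised reads at 24 h and 208, 222 and 235 with TNF (1.09, adjusted p = 1.4e-05). Malat1, another long non-coding RNA with a cluster, was called in none of the 5 limma-trend comparisons, of which the lowest adjusted p was 0.25. Its single peaks did change, in opposite directions. At 24 h peaks 3, 5 and 6 were called higher (0.99, 0.60 and 1.05) and peaks 1, 2 and 4 lower (-0.52, -0.57 and -0.62). From 24 h to 72 h peak 6 was lower (-2.06, adjusted p = 2.1e-05) and peaks 3 and 7 were higher (0.58 and 0.74).

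At 72 h the further gains under TNF were the non-coding B230206L02Rik (0.51, SE 0.13, adjusted p = 0.0099), Dennd2a, an activator of Rab GTPases (0.45, SE 0.12, adjusted p = 0.019), and Btg2 as given above. The losses besides Gli2 were the cluster of Lgi3, Reep4 and Hr (chr14:70537907-70555867, 8 peaks) at 7.73, 7.66 and 7.68 at 72 h and 7.26, 7.22 and 7.20 with TNF (-0.47, SE 0.12, adjusted p = 0.011), the tetraspanin gene Tspan9 at 7.28, 7.18 and 7.24 and 6.85, 6.64 and 6.65 (-0.52, SE 0.13, adjusted p = 0.011), Ppp1r1b, which encodes DARPP-32 (-0.48, SE 0.14, adjusted p = 0.029), and Emc8 with Cox4i1 (-0.55, SE 0.18, adjusted p = 0.047), whose call was lost with edgeR (-0.30, adjusted p = 0.11). For all 10 clusters called at 72 h the TNF and untreated libraries did not overlap, as in 69 of the 174 tested clusters, called or not. The share of all chains without overlap was not taken. Non-overlap was also a condition of the naming rule, so here and above it is no evidence beside the calls. In Emc8, the peak that had opened at 24 h, peak 4, had 152, 118 and 129 normalised reads at 72 h and 50.96, 38.4 and 37.2 with TNF (-1.64, SE 0.29, adjusted p = 3.0e-04). In Lgi3, peak 3 had 741, 525 and 591 and 314, 185 and 263 (-1.30, SE 0.22, adjusted p = 1.6e-04). Of the 9 clusters of immediate early, stress and NF-kB regulator genes, 1 was higher under TNF at 24 h (Junb) and 2 at 72 h (Junb and Btg2), none was lower. In the untreated comparisons 1 was higher and 3 lower at 24 h (2 and 1 with total-read scaling, 1 and 1 with loess), 3 were higher at 72 h, and 2 were higher at 1 week (0 higher and 4 lower with total-read scaling). Of all chains, 6.85% and 6.31% were higher under TNF at 24 h and 72 h. Without TNF, 24.8% were higher and 22.5% lower at 24 h, and 11.4% and 23.0% were higher at 72 h and 1 week. Dense clusters gave 4.02%, 2.87%, 14.4%, 31.6%, 16.7% and 17.2% in this order. Nfkbib, Zfp36 and Zfp36l1 code for inhibitors or mRNA decay factors of inflammatory signalling. Under TNF at 24 h, the clusters Nfkbib/Sirt2, Plekhg2/Zfp36 and Zfp36l1 had changes of -0.23 (adjusted p = 0.36), 0.19 (adjusted p = 0.29) and 0.22 (adjusted p = 0.47). The peak over the shared start of Nfkbib and Sirt2 had a change of -0.006 (adjusted p = 0.99).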

How the data were processed

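The 19 mouse ATAC-seq libraries of 6 groups were analysed from 1 table of peaks. Per the labels and the study's methods, the authors trimmed reads with Trim Galore, checked them with FastQC, aligned them to mm10 with Bowtie2, filtered them with SAMtools and called peaks with MACS2, and counted reads over a common set of peaks, where the versions are not given in the sources used here. The deposited values are a normalised signal, that is, read coverage counted per peak and divided by a size factor per library. Every value came out as a whole number of reads (100%, tolerance 0.1), so depth could be recovered. The table has 0 columns without a sample.

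Chains were built from peak positions, and gene names, gene starts and promoters came from RefSeq GRCm38.p6. Values were log2(value + 1), a chain's value was the mean over its peaks, and units without a peak passing edgeR's filterByExpr (minimum count 10) were not tested. All 19 libraries, 1 mean for each group, entered the limma-trend test (limma 3.58.1 in R 4.3.3), with Benjamini-Hochberg adjustment over 65928 chains or 88919 peaks, with calls at 0.05. Its prior variance is set mostly by lone peaks, so that it is cautious for clusters. Differences within chains used limma's diffSplice. Alternatives were edgeR 4.0.16 on recovered reads, other scalings, filters, distances and sizes, a prior variance by size class (1, 2 to 5, and 6 or more peaks, used because a smooth trend on the number of peaks could not be fitted), and leaving out each library. The scripts were tested on simulated data.

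Clusters are named by a rule, namely the 10 with most peaks, the 3 with the smallest p in each comparison and direction among called clusters without overlap between groups, and up to 4 for each of the lists of progenitor, glial and NF-kB genes. Others were named after their values were seen. The members and lists were chosen with earlier results of these data known. Replicate numbers in titles (r of deviations between -0.05 and 0.11) or in library names (-0.04 to 0.11) did not pair the libraries. The counts of 1 gene group are not reported here.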

Additional observations from a re-analysis of the deposited data

How the results depend on the processing

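Of 5890 values for the 38 named clusters with a test, 5647 kept their direction and their side of the threshold, 122 lost a call, 101 gained one and 20 changed sign. Pseudocount 5, no filter, and leaving out chains lost in the tagged libraries moved no share by over 1.5 times, and the causes of the moves below were not tested. Shares of clusters moved as follows. With total-read scaling they were 25.9% higher and 16.1% lower at 24 h, 2.87% lower at 72 h, 0.575% higher and 51.1% lower at 1 week, and 1.72% higher and 7.47% lower for TNF at 72 h, and with loess 4.60% were higher at 1 week. The prior variance by size class gave 21.8% higher at 24 h, 28.7% higher and 10.3% lower at 72 h, 11.5% and 3.45% for TNF at 24 h, and 9.20% and 7.47% for TNF at 72 h. EdgeR gave 27.6% and 9.77% at 72 h, 9.20% and 5.17% for TNF at 24 h, and 6.90% and 8.05% for TNF at 72 h. With only the groups compared, 18.4% were lower at 24 h and 4.60% higher for TNF at 72 h. The median of the peaks gave 6.32% and 1.72% for TNF at 24 h and 4.60% higher at 72 h. Chains at 3 kb (22) gave 13.6% lower at 24 h, 0% lower at 72 h, 9.09% higher at 1 week, 0% lower for TNF at 24 h and 0% in both directions at 72 h. Chains at 10 kb (1424) gave 23.1% higher at 24 h, 6.67% higher for TNF at 24 h and 4.99% at 72 h. At least 8 peaks gave 2.33% lower at 72 h, 0% lower for TNF at 24 h, and 0% higher and 4.65% lower at 72 h.

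For member peaks, total-read scaling gave shares of 7.23% higher and 35.9% lower at 1 week and 8.42% higher with loess. At 3 kb they were 22.1% lower at 24 h, 12.5% higher at 1 week, and 5.15% and 1.47% higher for TNF at 24 h and 72 h. With only the groups compared they were 6.04% lower for TNF at 24 h and 12.1% higher and 9.86% lower at 72 h, and with at least 8 peaks 1.98% lower for TNF at 24 h. Clusters whose peaks differed were 38.1% at 1 week and 14.3% for TNF at 72 h with 3 kb, and 41.8% for TNF at 24 h with 10 kb.

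The replicate block left 24 clusters higher and 53 lower at 24 h, 27 and 10 at 72 h, 22 and 19 at 1 week, 7 and 1 for TNF at 24 h and 5 and 4 at 72 h. The replicate block by library-name number gave 1.72% higher, 1.72% lower and 17.4% with differing peaks for TNF at 72 h. The numbers are not shown to pair the libraries.

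Sign changes were -0.44 (tested peaks only) and -0.35 (edgeR) for the Gm40369 cluster at 24 h, -0.40 (median) and -0.19 (edgeR) for Notch1 at 24 h, and otherwise changes at 1 week. There, total-read scaling gave -0.10 for Notch1, -5.1e-05 for Pim3, -0.075 for Capns1, -0.064 for Midn, -0.044 for C130071C03Rik, -0.33 for Junb and for B230206L02Rik, -0.056 for Hes1 and -0.28 for Nfix. Loess gave -0.0078 for Midn, -0.025 for C130071C03Rik and -0.027 for Hes1, and -0.30 for Junb. The median gave 0.65 for Btg2, and edgeR 0.27 for Sfi1 and 0.39 for Nfia.

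Leaving out 1 library gave 12.6 to 17.8% of clusters higher and 23.6 to 37.9% lower at 24 h, 13.2 to 20.7% and 2.30 to 7.47% at 72 h, 9.20 to 18.97% and 6.90 to 15.5% at 1 week, 3.45 to 6.90% and 0.575 to 1.15% for TNF at 24 h, and 1.72 to 6.32% and 1.15 to 5.17% at 72 h. For member peaks the ranges were 17.8 to 22.3% and 29.0 to 37.8%, 13.9 to 25.2% and 6.72 to 12.6%, 18.5 to 26.5% and 11.9 to 20.7%, 5.95 to 11.9% and 1.70 to 6.46%, and 4.76 to 11.9% and 3.57 to 9.86% in the same order. For clusters whose peaks differed they were 78.5 to 90.1%, 38.4 to 69.8%, 59.9 to 82.6%, 16.3 to 39.5% and 14.5 to 43.6%. Each highest value came without NSPs replicate 1, and the interaction gave 0 calls in every case. No change was detectable in the 115 member peaks that failed the filter, and why they held few reads was not tested.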
